A study of Saccharomyces cerevisiae with 12 samples.

Results

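RNA levels of near-silent genes were compared between budding yeast (Saccharomyces cerevisiae) with wild-type SPT6 (WT) and yeast whose Spt6 lacks the tSH2 domain (tSH2Δ). The genes described here had a mean of under 5 RPKM (reads scaled to gene length in kilobases and to library size) over the WT libraries. Their mean over the tSH2Δ libraries was at least 2 RPKM and at least 2 times the WT mean. They were chosen from the deposited RPKM of these same libraries, so their difference between the strains is the rule itself and is given as a description, with no test. Of 6571 genes, 226 met these limits. The rule left out 2 genes with ids of chromosome XI (YKL and YKR), 41 others whose id ends in a hyphen and a letter, and 2 single genes by id. The remaining 181 genes are the members.

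There were 3 RNA-seq libraries per strain, labelled S288C in both strains. Both strains were grown untreated in rich glucose medium (YPD) from a starting density of 0.2, for 4 h by one protocol text and up to a density of 1 by another. The labels do not say how the allele was made, whether the mutant is a single clone, or whether replicates were separate cultures. The p-values of other genes below therefore cover no more than the variation among these libraries, and that variation could be technical. Chromatin accessibility, profiled in 6 further libraries, was not analysed here.

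Spt6 binds histones and moves along genes with elongating RNA polymerase II, where it helps to put nucleosomes back. Its tandem SH2 domain binds the linker next to the C-terminal repeats of the largest polymerase subunit. In yeast, loss of Spt6 function is known to permit transcription from start sites that chromatin normally covers, within genes and in repressed regions. Many genes that are barely transcribed in glucose-rich medium belong to other programmes, such as sporulation, growth on other carbon sources, stress and stationary phase. RNA levels do not separate synthesis from decay, and in bulk samples a change in a few cells cannot be told apart from a small change in all cells.

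The libraries held 20483931 to 27069700 reads, of which 17575916 to 23722190 lay in genes. SPT6 itself measured 147.4 ± 5.97 RPKM in WT against 103.6 ± 1.91 RPKM in tSH2Δ (SD, n = 3). After scaling to the median gene its log2 fold change was -1.08 (limma adjusted p = 3.51e-08). The same gene length was used for both strains. Reads lost with the coding sequence of the tSH2 domain could not be separated from a change in the level of SPT6 RNA. The median gene stood 0.56 higher on the log2 scale in tSH2Δ in RPKM as deposited. Libraries rescaled to the median gene are called rescaled below, and all other RPKM are as deposited.

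The members were weak in WT and stayed weak in tSH2Δ. Their mean RPKM in WT ran from 0.0683 to 4.99, with a median of 2.69. In tSH2Δ it ran from 2.23 to 39.4, with a median of 8.09. The median over all genes was 41.5 RPKM in WT and 67.2 in tSH2Δ, and even the highest member stood above only 28.1% of all genes in tSH2Δ. Summed over the members, RPKM made up 0.0566% to 0.0604% of the total in WT libraries and 0.202% to 0.210% in tSH2Δ libraries.

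**Figure D1:**
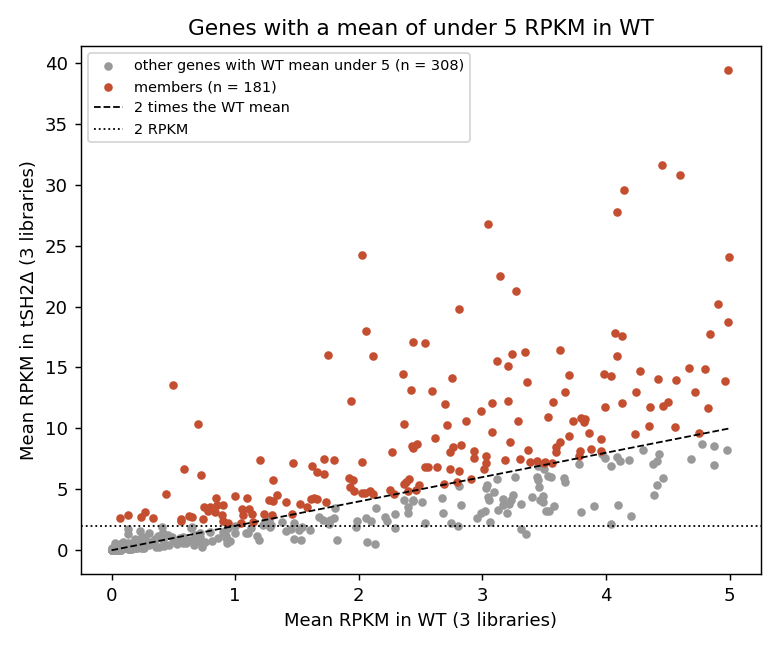
Mean RPKM in tSH2Δ (y axis) against mean RPKM in WT (x axis) for the 489 genes outside the exclusions with a WT mean of under 5, each mean over 3 libraries. The 181 members (red) lie above the dashed line at 2 times the WT mean and the dotted line at 2 RPKM, and the highest reaches 39.4 RPKM, while the 308 other genes (grey) reach at most 8.72 RPKM.

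The ratio of mean tSH2Δ RPKM to mean WT RPKM, called the fold here, had a median of 3.19 over the members. It was at least 4 for 59 members and at least 8 for 13. Over all genes the median fold was 1.51, so part of each member's fold is shared with the median gene. After rescaling, the median fold of the members was 2.13, and 80 members lay under a fold of 2. Of the 181 members, 84 met the limits of the rule on rescaled RPKM.

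In every member all tSH2Δ libraries were above all WT libraries, which was so for 72.5% of the 6307 genes tested. On rescaled RPKM this held for 170 members, against 42.5% of all genes. A limma fit over all genes after rescaling called 172 of the 181 members higher in tSH2Δ (adjusted p under 0.05), where 41.6% of all genes were called higher. Over all genes that fit called 2626 higher and 2640 lower, and 4565 and 1091 with RPKM as deposited. The counts of members restate the rule. Of the members, 147 had at least 1 RPKM in all WT libraries, and 15 had all WT libraries under 1 RPKM and passed the filter of the fit only through tSH2Δ. The authors' deposited table lists 158 of the members, all as higher, and it lists 36.6% of all genes as higher.

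Genes outside a limit are named here only if they met the other limits of the rule. Among these genes and the members, the limits on the WT mean and on the ratio cut through closely spaced values. Around the tSH2Δ limit the nearest named genes on either side were further apart. Among genes with a standard name, next to the limit of 5 RPKM in WT, SUE1 and FMP48 (both 4.99) were inside and PAU7 (5.02) and THI73 (5.08) were outside. Next to the limit of 2 RPKM in tSH2Δ, PHO89 (2.23), UTR5 (2.24) and COS7 (2.38) were inside, and PHO11 (1.42), RRT7 (1.36) and SRL4 (1.33) were outside. Next to the limit on the ratio, THI4, MEK1 (both 2.01) and LEE1 (2.02) were inside, and ECM8 (2.00 when rounded), GTO3 (1.87) and ADH7 (1.82) were outside.

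Among members with a standard name, SUE1 reached the highest level in tSH2Δ. SUE1 (YPR151C, chromosome XVI, 831055 to 831675, sacCer3) encodes a mitochondrial protein needed to degrade unstable forms of cytochrome c. It was at 3.96, 4.88 and 6.13 RPKM in the WT libraries and at 37.9, 41.1 and 39.2 in the tSH2Δ libraries. The strains were far apart and the fold was 7.90. BOP2 (YLR267W, chromosome XII, 678212 to 679924) followed with 3.96, 4.42 and 5.42 RPKM in WT and 31.0, 31.5 and 29.9 in tSH2Δ. The tSH2Δ libraries of BOP2 lay within 2 RPKM of each other, and its fold was 6.70.

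AAD4 and BIO3 came next. AAD4 (YDL243C, chromosome IV, 17577 to 18566), a putative aryl-alcohol dehydrogenase gene near a chromosome end, was at 4.11, 3.65 and 4.67 RPKM in WT and at 29.5, 29.9 and 29.4 in tSH2Δ. BIO3 (YNR058W, chromosome XIV, 734291 to 735733), which encodes an aminotransferase of biotin synthesis, was at 4.49, 4.37 and 3.40 RPKM in WT and at 26.2, 28.1 and 29.1 in tSH2Δ. Folds were 7.14 for AAD4 and 6.80 for BIO3, with no overlap between strains. The gene beside BIO3 on the opposite strand, BIO4 of the same pathway, is no member because its WT mean was 6.82 RPKM, and its log2 fold change after rescaling was 1.02 (limma adjusted p = 1.34e-06). FMP48, a gene for a putative mitochondrial kinase, and AAC1, the minor ADP/ATP carrier of mitochondria, had folds of 4.81 and 4.38.

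**Figure D2:**
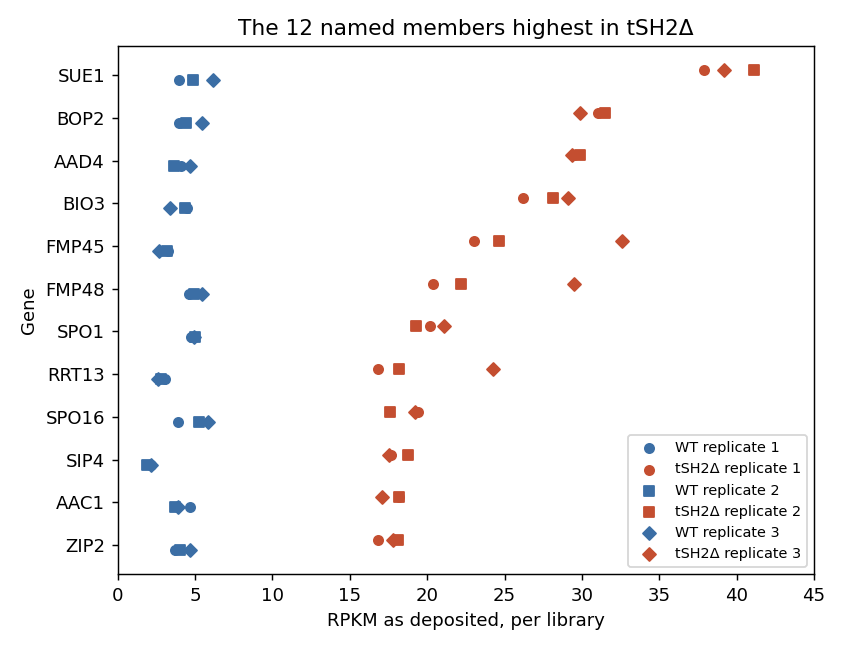
RPKM as deposited (x axis) in each library for the 12 members with a standard name and the highest mean in tSH2Δ (y axis), with WT in blue, tSH2Δ in red and 1 symbol per replicate. The strains do not overlap for any of them, and replicate 3 of tSH2Δ stands to the right of the other two for FMP45 (32.6 RPKM), FMP48 (29.5) and RRT13 (24.3).

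By the ratio of the means after adding 0.5 RPKM to each, FYV12 led the named members. FYV12 (YOR183W, chromosome XV, 678872 to 679261) was at 0.979, 0.502 and 0.618 RPKM in WT and at 10.5, 11.4 and 9.31 in tSH2Δ. These values rest on 18 reads in all WT libraries together and 312 in tSH2Δ, and the ratio of pooled reads per library depth was 14.5 (95% exact binomial interval 9.05 to 24.9, counting error only). RRT5 had a fold of 9.15, and FMP45, which encodes a membrane protein of eisosomes, the furrows of the yeast plasma membrane, one of 8.78. ATG39, the receptor for autophagy of the nuclear envelope, was at 2.12 ± 0.116 RPKM in WT and 16.0 ± 0.696 in tSH2Δ (SD, n = 3). GID10 (6.70) encodes a substrate receptor of the GID ubiquitin ligase, and SPG4 (7.01) is a gene named for survival in stationary phase.

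Meiosis and sporulation genes were the largest group among the members by the lists used. Meiosis is started in diploid cells that starve on a poor carbon source, and haploid cells in rich medium keep its genes off. Of 45 list genes outside the exclusions with a WT mean under 5 RPKM, 18 (40.0%) were members, close to the 37.0% of all 489 such genes. SPO1 (YNL012W), required for spindle pole body duplication at meiosis II, was at 4.76, 5.00 and 4.95 RPKM in WT and at 20.2, 19.3 and 21.1 in tSH2Δ. SPO16 was at 3.91, 5.24 and 5.81 RPKM in WT and at 19.4, 17.6 and 19.2 in tSH2Δ. ZIP2 had 4.13 ± 0.475 and 17.6 ± 0.655 (SD, n = 3). Spo16 and Zip2 act together where the synaptonemal complex starts to form between paired chromosomes, and in both genes the strains were well apart.

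The sporulation members spanned early and late stages. SPS100, a spore wall gene, had the largest fold of the 18, with 3.07, 3.89 and 3.09 RPKM in WT and 16.5, 16.8 and 15.6 in tSH2Δ, a fold of 4.87. Other members were the early genes SPO13, REC8 (the meiotic cohesin), MEK1 (a meiotic checkpoint kinase) and MAM1 (a monopolin subunit). AMA1 encodes a meiotic activator of the anaphase-promoting complex. The middle and late genes were SPO21, MPC54, SPO19, GIP1, SPR1, SPR28, LDS2, SGA1 and SHC1, which serve the spore membrane and wall or glycogen use. The lowest of the 18 in tSH2Δ was SPO19 at 2.57 ± 0.417 RPKM, from 0.565 ± 0.197 in WT (SD, n = 3). Only 6 of the 18 met the rule on rescaled RPKM.

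Over the whole meiosis and sporulation list, members included, 40 of 74 tested genes (54.1%) were called higher and 15 (20.3%) lower in the fit after rescaling, where 41.6% of all genes were higher and 41.9% lower. The list's median log2 fold change was 0.36, and that of all tested genes 0.01. The 56 tested list genes that were no members had 22 higher (39.3%) and 15 lower (26.8%). Here and for the other lists the rule took the genes that gained out of such a remainder, so its shares are descriptions only. With RPKM as deposited 54 of the 74 genes of the whole list were higher and 6 lower, where 72.4% of all genes were higher. After quantile normalization 31 were higher and 24 lower, where 40.0% of all genes were higher. On both scales the list was close to the share of all genes. Among the 27 weak list genes that were no members were the recombinase gene DMC1, the septin gene SPR3 and the spore wall genes DIT1 and DIT2.

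Genes for the use of carbon sources other than glucose made up 10 members, 10 of the 20 weak genes of their list outside the exclusions. That is 50.0%, where 37.0% of all weak genes outside the exclusions were members. SIP4 (YJL089W, chromosome X, 265926 to 268415), which encodes an activator of gluconeogenic genes, was at 2.13, 1.90 and 2.15 RPKM in WT and at 17.7, 18.7 and 17.5 in tSH2Δ. Its libraries were tight within each strain, and its fold was 8.74. FBP1, the gene of the gluconeogenic fructose bisphosphatase, had 3.67 ± 0.318 RPKM in WT and a fold of 3.54, and GAL7, the galactose pathway transferase, had 1.94 ± 0.174 and 12.3 ± 1.06 RPKM (SD, n = 3). CAT2, a carnitine acetyltransferase gene, was close to the limit on the ratio, with a fold of 2.22.

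The other members of this list were ADY2 (an acetate transporter), REG2 (a phosphatase subunit), MLS1 (malate synthase), CRC1 and SFC1 (mitochondrial carriers) and HXT7 (a glucose transporter). HXT7 had the largest fold of the list, 10.4, from 0.443 ± 0.0426 RPKM in WT to 4.60 ± 0.489 in tSH2Δ (SD, n = 3). Its near-identical neighbour HXT6 was listed at 0.053 and 0.236 RPKM, and how reads that match both genes were shared is uncertain. Of the 40 tested genes of the list that were no members, 25 (62.5%) were called higher and 4 lower. The median log2 fold change of these 40 was 0.70. For the whole list 35 of 50 were higher and 4 lower after rescaling. The counts were 47 and 1 with RPKM as deposited, and 29 and 15 after quantile normalization. Of all genes, 41.6%, 72.4% and 40.0% were higher on these scales, in that order.

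Stress-induced genes had the largest share of members among their weak genes, 8 of 11 (72.7%), where 37.0% of all 489 weak genes were members. The weak list genes that were no members, HSP32, HSP33 and SNO4, had 0 RPKM in WT and 0, 0 and 0.107 in tSH2Δ. The share of a list thus also depends on how many of its genes had almost no reads in either strain. ALD3, a cytosolic aldehyde dehydrogenase gene induced by stress, was at 2.95, 2.67 and 3.73 RPKM in WT and at 13.8, 14.6 and 18.2 in tSH2Δ. SIP18, a hydrophilin gene of desiccation tolerance, was at 1.59, 2.04 and 3.62 RPKM in WT and at 11.1, 10.4 and 18.1 in tSH2Δ. FMP45 was at 3.23, 3.21 and 2.69 RPKM in WT and at 23.0, 24.6 and 32.6 in tSH2Δ. In each of these 3 genes the third tSH2Δ library was the highest, and for ALD3 and SIP18 so was the third WT library. SPG4, with 2.44 ± 0.611 and 17.1 ± 1.37 RPKM (SD, n = 3), had its lowest value in that library.

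The other stress-induced members were ALD2, which lies next to ALD3, SPG1, and the transcription regulator genes USV1 and XBP1. Of the 42 tested list genes that were no members, 33 (78.6%) were called higher and 6 lower. The median log2 fold change of these 42 was 1.25. Over the whole list 41 of 50 were higher after rescaling, 46 with RPKM as deposited and 39 after quantile normalization. The shares of all genes called higher were 41.6%, 72.4% and 40.0%, in that order. Of the 8 members, 6 met the rule on rescaled RPKM.

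**Figure D3:**
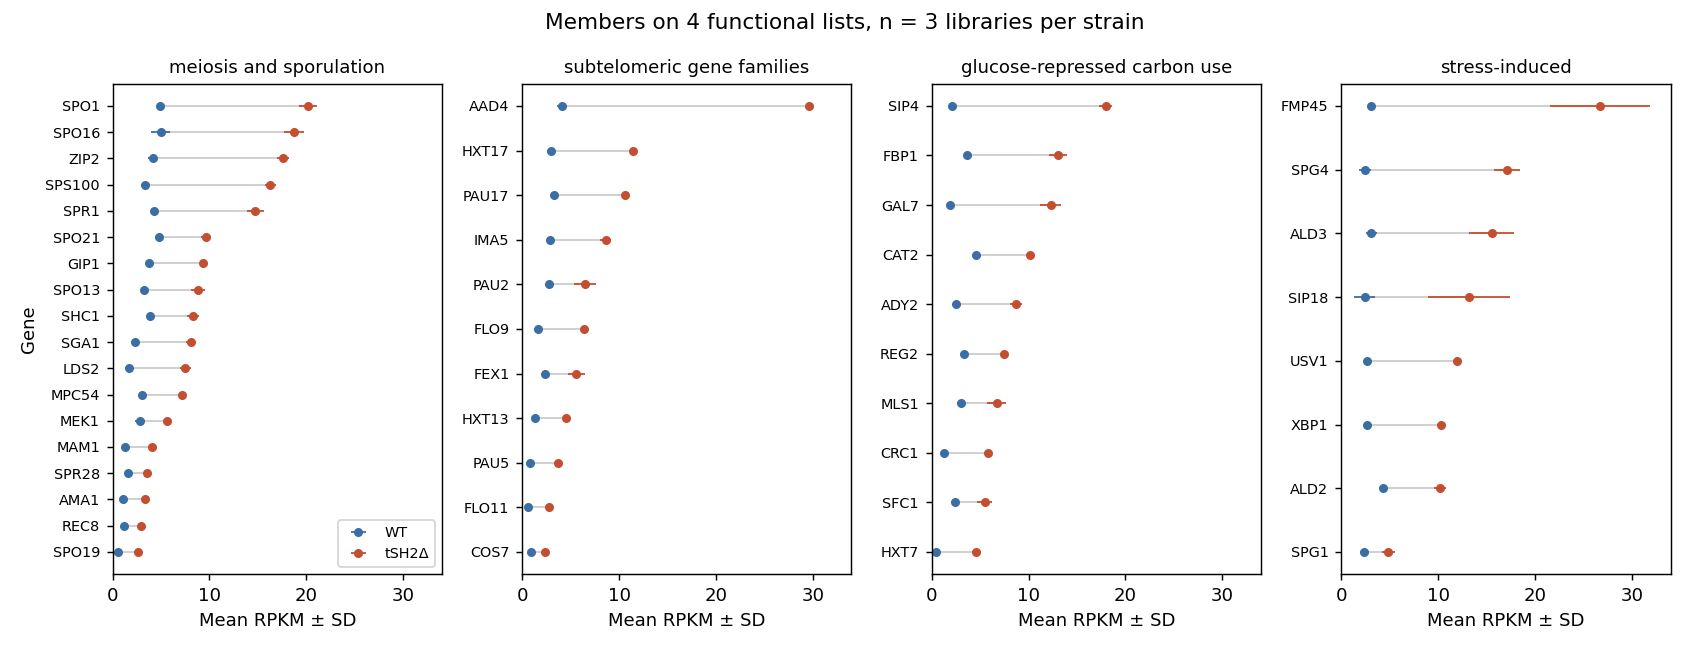
Mean RPKM with SD (x axis, n = 3 libraries) in WT (blue) and tSH2Δ (red) for the members on 4 lists, 1 gene per line (y axis). The sporulation members lie at 2.57 to 20.2 RPKM in tSH2Δ, the subtelomeric ones at 2.38 to 29.6, the glucose-repressed ones at 4.60 to 18.0 and the stress-induced ones at 4.88 to 26.7.

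Genes of subtelomeric families had the lowest share of members of the 6 lists. Many genes of these families lie in repeated regions near chromosome ends, but not all members on the list do. PAU5, for example, lies in a run of adjacent members that starts at 99231 on chromosome VI. Against 37.0% of all weak genes outside the exclusions, 11 of the 67 on this list (16.4%) were members. Besides AAD4, they were the hexose transporter genes HXT17 (2.99 ± 0.417 RPKM in WT and 11.4 ± 0.432 in tSH2Δ, SD, n = 3) and HXT13, the seripauperin genes PAU17, PAU2 and PAU5, the isomaltase gene IMA5, the flocculin genes FLO9 and FLO11, the fluoride exporter gene FEX1 and COS7. PAU17 had 3.28 ± 0.358 and 10.6 ± 0.293 RPKM, and IMA5 2.83 ± 0.154 and 8.61 ± 0.539 (SD, n = 3). Values of these families depend on how reads that match several places were treated. HXT16, a near-identical relative of other hexose transporter genes, was listed at 0 in all 6 libraries. Of the 30 tested list genes that were no members, 13 (43.3%) were called higher and 7 (23.3%) lower. Over the whole list 24 of 41 were higher and 7 lower after rescaling. The counts were 30 and 3 with RPKM as deposited, and 19 and 11 after quantile normalization. Of all genes, 41.6%, 72.4% and 40.0% were higher on these scales, in that order.

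The lists of poor nitrogen use and of cell surface and mating genes held few weak genes, of which 3 of 9 (33.3%) and 3 of 7 (42.9%) were members. Of all weak genes outside the exclusions, 37.0% were. AGP3, an amino acid permease gene, was at 3.16, 3.00 and 3.07 RPKM in WT and at 11.9, 12.1 and 12.3 in tSH2Δ, among the tightest values of any member. DAL4 (3.96 ± 0.137 and 8.11 ± 0.942) and DAL3 (3.50 ± 0.186 and 7.12 ± 0.705) of allantoin use lay just inside the limit on the ratio (SD, n = 3). Among surface and mating genes, PRM2, a pheromone-regulated gene, had 3.63 ± 0.248 and 8.84 ± 0.192 RPKM. FLO9 had 1.66 ± 0.268 and 6.40 ± 0.0861, and FLO11, the main adhesin of invasive growth, 0.653 ± 0.124 and 2.75 ± 0.422 (SD, n = 3). Of 34 tested surface and mating genes that were no members, 11 (32.4%) were higher and 19 lower, and of 29 tested nitrogen genes that were no members 16 (55.2%) were higher and 9 lower. Members included, the surface and mating list had 14 higher and 19 lower after rescaling. The counts were 22 and 7 with RPKM as deposited, and 13 and 16 after quantile normalization. The balance of this list depends on the scaling, as does that of all genes. On each scale its share called higher was below that of all genes. For the nitrogen list, 19 were higher and 9 lower after rescaling, 26 and 3 with RPKM as deposited, and 17 and 10 after quantile normalization. The surface and mating list had 37 tested genes and the nitrogen list 32. On these scales 41.6%, 72.4% and 40.0% of all genes were higher, in that order.

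The 6 lists held 51 members, and 130 members were on none. Of these 130, 55 have a standard name, and those named in this paragraph and the next were chosen after their values were seen. ARG3 (YJL088W), which encodes ornithine carbamoyltransferase of arginine synthesis, lies directly beside SIP4 and had 2.36 ± 0.137 RPKM in WT and 14.5 ± 0.999 in tSH2Δ (SD, n = 3). INO1, the inositol-3-phosphate synthase gene, had 4.83 ± 0.456 and 11.7 ± 0.453 RPKM (SD, n = 3). ENA1, the sodium-exporting ATPase gene, was at 0.258, 0.268 and 0.294 RPKM in WT and at 2.82, 3.62 and 2.98 in tSH2Δ, a fold of 11.5. ENA1 has near-identical tandem copies, of which ENA2 was listed at 0 in all libraries and ENA5 had 3.17 and 3.70 RPKM, so the sharing of reads among them is uncertain. ZNF1, a zinc cluster regulator of growth on non-fermentable carbon, had 2.74 ± 0.468 and 8.09 ± 0.542 RPKM, (SD, n = 3), and GAT4, a GATA-type factor gene, had a fold of 2.15.

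Some members have a more highly expressed relative. In 16 such pairs, picked by hand after their values were seen, the partner's level was above the member's by a median of 26.4 times in WT and 11.2 times in tSH2Δ (RPKM, which is per length). The choice of pairs fixes that order, and other members stood above a relative in tSH2Δ, such as HXT7 above HXT6, AAD4 (29.6 RPKM) above AAD14 (20.4) and FLO9 (6.40) above FLO1 (2.15). HEF3, a weakly expressed copy of the translation elongation factor gene YEF3, had 4.67 and 15.0 RPKM in WT and tSH2Δ, and YEF3 had 2921 ± 224 and 1060 ± 91.4 (SD, n = 3). GND2, the minor 6-phosphogluconate dehydrogenase gene, had 3.50 and 7.25 RPKM, against 739 ± 39.2 and 234 ± 5.26 for GND1. Both partners were thus lower in tSH2Δ, with log2 fold changes after rescaling of -2.04 for YEF3 (limma adjusted p = 1.99e-07) and -2.23 for GND1 (limma adjusted p = 1.25e-08).

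The calls of the partners depended on the scaling. After rescaling, 5 of the 16 were called higher, 7 lower and 4 were not called. With RPKM as deposited 12 were higher and 2 lower, and after quantile normalization 7 were higher and 6 lower. Of all genes, 41.6%, 72.4% and 40.0% were higher on these scales, in that order. YEF3 and GND1 were the partners called lower under all 3 scalings. The median log2 fold change of all 16 partners after rescaling was 0.05. CIT1, the main mitochondrial citrate synthase gene, was higher (0.83, limma adjusted p = 2.62e-07), and so was NDE1, an external NADH dehydrogenase gene (0.65, limma adjusted p = 2.12e-06). Their minor copies CIT3 and NDE2 had folds of 2.78 and 2.59. RGI1, of a pair of respiratory growth genes with RGI2, was higher by 1.65 (limma adjusted p = 2.77e-07), and VID24, the partner of GID10, by 0.85 (limma adjusted p = 1.41e-07). PET9, the main ADP/ATP carrier gene, had -0.51 (limma adjusted p = 7.17e-06), but it was not called with RPKM as deposited and was called higher after quantile normalization. DOG2, THI7 and SKT5 were called lower after rescaling and higher with RPKM as deposited. SDH1, the partner of the succinate dehydrogenase copy SDH9, lies on chromosome XI and had a log2 fold change of -0.65 (limma adjusted p = 9.24e-05), with no call on RPKM as deposited. The gap between partner and member was smaller in tSH2Δ in 15 pairs, which the rule favours because it requires the member to gain.

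The members included 40 RefSeq genes with no standard name and 35 ids with no match in the RefSeq table of assembly R64. The unmatched ones were short, with a median length of 353 bases against 1139 for members with a standard name. No position was available for them, so their overlap with other genes was not examined. Whether their reads belong to an overlapping gene is therefore not known. Of these 35, 21 met the rule on rescaled RPKM. Among the high ones in tSH2Δ without a standard name were YLR334C, YIL028W and YDL196W, none of them in the RefSeq table. YLR334C was at 1.11, 2.44 and 2.53 RPKM in WT and at 24.7, 25.3 and 22.7 in tSH2Δ, with every tSH2Δ value far above WT.

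The largest folds belonged to frames with almost no WT reads. YAR075W had 0, 1 and 1 reads in the WT libraries and 22, 26 and 49 in the tSH2Δ libraries, a ratio of pooled reads per depth of 40.7 (95% exact binomial interval 11.0 to 340.7). YLR184W had 1 read in each WT library and 17, 22 and 40 in tSH2Δ (ratio 22.1, interval 7.29 to 109.4). YER085C, named after its values were seen, had 7, 4 and 6 reads in WT and 190, 181 and 176 in tSH2Δ, so its ratio of 27.0 (interval 16.7 to 46.7) rests on more reads. These intervals cover counting error only and leave out differences among the libraries of a strain. They also leave out reads that match several places, whose treatment is not known. Whether such reads make up the counts of these frames was not tested. They are no support for a gain, because the rule chose these genes on the same reads. In all, 23 members had under 30 reads over the WT libraries, and the median member had 104 in WT and 456 in tSH2Δ.

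The members were spread over every chromosome but XI, whose left- and right-arm ids the rule leaves out. Their share of the RefSeq genes in the table was largest on chromosome VI, 9 of 126 (7.14%), and on chromosome IX, 13 of 213 (6.10%). Some members lay side by side. There were 11 runs of adjacent members holding 24 of the 146 with a position (16.4%). Of the other weak genes, 144 of 251 (57.4%) lay next to one of their own group. The runs of 3 were YIL102C, XBP1 and SGA1 on chromosome IX (174582 to 179653) and DAK2, ZNF1 and YFL051C on chromosome VI (23423 to 30540). HEF3 with SPO1, CIT3 with PDH1, and ALD3 with ALD2 were runs of 2 genes on the same strand.

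Near chromosome ends the members were fewer than other weak genes. Of 146 members with a position, 25 (17.1%) lay within 30 kb of the outermost annotated gene of their chromosome, against 127 of 251 (50.6%) of the weak genes that were no members and 6.77% of all genes. Members and other weak genes also differed in WT level, with medians of 2.69 and 0.343 RPKM. Among genes with a WT mean of 1 to under 5 RPKM, a comparison added after seeing the data, 24 of 130 members (18.5%) and 23 of 94 other genes (24.5%) lay that close. Of the other weak genes, 73 had 0 reads in all 6 libraries, and 50 of the 62 of these with a position were within 30 kb of an end. In the same WT range members and other weak genes had similar median lengths (878 and 851 bases) and similar shares with a standard name (61.3% and 58.6%).

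**Figure D4:**
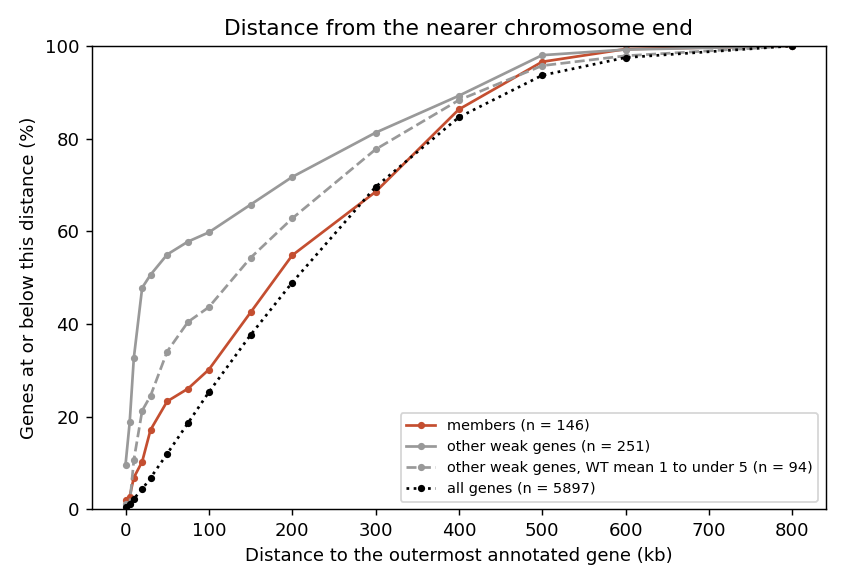
Percentage of genes (y axis) within a given distance of the outermost annotated gene on the nearer side of their chromosome (x axis, kb), for members, for other weak genes, for other weak genes with a WT mean of 1 to under 5 RPKM, and for all RefSeq genes in the table. At 30 kb the lines stand at 17.1%, 50.6%, 24.5% and 6.77% in that order.

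For each member with a position the nearest gene with a standard name was taken on either side, members left out. Of 232 such flanking genes tested, 102 (44.0%) were called higher and 86 (37.1%) lower after rescaling, where 41.6% and 41.9% of all genes were. With RPKM as deposited 176 of them were called higher, where 72.4% of all genes were. Their median log2 fold change was 0.03, and 0.02 for the genes beside other weak genes. Neighbours were also split by side and strand, and upstream ones on the member's strand had the largest share called higher. It was 27 of 51 (52.9%), against 28 of 66 (42.4%) beside other weak genes. Upstream on the opposite strand it was 42.2% against 44.9%. Downstream it was 40.5% against 41.1% on the same strand and 42.9% against 41.9% on the opposite strand. These differences were not tested.

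Single flanking genes moved strongly in either direction. HSP12, the small stress protein gene, lies 292 bases upstream of YFL015C on the opposite strand and had a log2 fold change of 4.06 (limma adjusted p = 4.6e-06). YFL015C itself had 8, 5 and 6 reads in WT and 84, 84 and 85 in tSH2Δ. HSP12 was at 465.5, 616.5 and 1293 RPKM in the tSH2Δ libraries, a spread that the counts of YFL015C did not share. ALR2, a magnesium transporter gene 2731 bases upstream of YFL051C, had 2.33 (limma adjusted p = 6.78e-09). RMD6, the nearest named gene to the subtelomeric frame YEL077C at 9622 bases, had 2.13 (limma adjusted p = 1.32e-08).

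Other members gained beside genes that were lower. FAS2, the fatty acid synthase gene upstream of USV1 on the same strand, had a log2 fold change of -2.10 (limma adjusted p = 4.45e-08). FET3, which lies back to back with AAC1, had -1.43 (limma adjusted p = 3.51e-08), and PYP1, downstream of SPO1, -1.44 (limma adjusted p = 1.75e-08). Next to FYV12 lie SER1 at -0.46 (limma adjusted p = 1.08e-05) and RPS30B at -0.63 (limma adjusted p = 1.48e-05). SER1 was at 199.5 and 217.1 RPKM as deposited and was called higher on that scale. Around SUE1, NCE102 was higher by 0.53 after rescaling and URN1 was not called (-0.10).

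**Figure D5:**
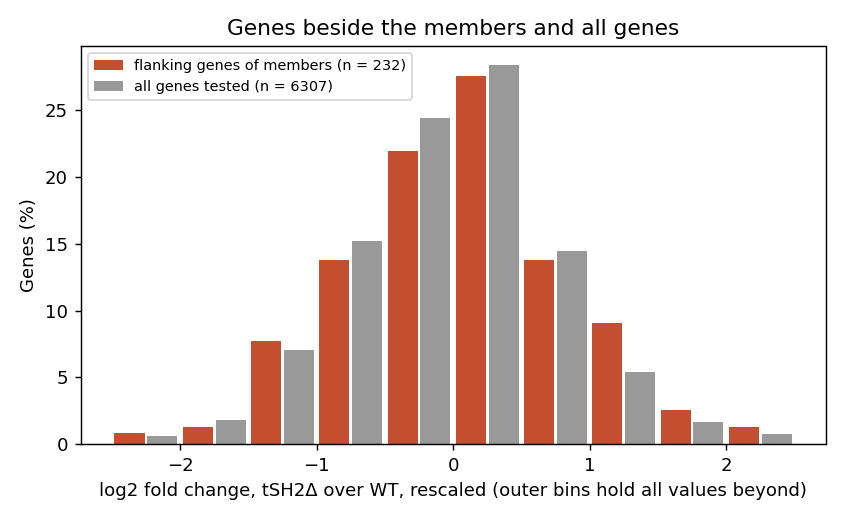
Share of genes (y axis, %) by log2 fold change of tSH2Δ over WT after rescaling (x axis, bins of 0.5), for 232 genes beside members (red) and all 6307 genes tested (grey). Both distributions centre near 0, with 27.6% and 28.4% of genes in the bin from 0 to 0.5.

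The tSH2Δ libraries differed among themselves for a few members. Among the 107 members with at least 100 reads in every tSH2Δ library, the third library was at least 25% above the higher of the other two for 5 (4.67%), namely FMP45, RRT13, FMP48, THI4 and FEX1. The first library stood out in this way for 1 and the second for 0. Over the 5979 genes that passed the same floor of 100 reads, the share for the third library was 0.552%. Members had fewer reads, with a median of 456 over the tSH2Δ libraries for all members and 5885 for all genes. FMP48 was at 20.4, 22.2 and 29.5 RPKM and RRT13 at 16.8, 18.2 and 24.3 in the tSH2Δ libraries. The median coefficient of variation among tSH2Δ libraries was 5.96% for the 107 members and 3.65% for the 5979 genes. The part of read depth in this gap and in the shares of genes that stood out was not tested.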

How the data were processed

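The authors deposited RPKM values and gene lengths for 6571 genes. The submitters' processing notes name sacCer3 as build and, without roles, tools that include Bowtie 1.1.2, HTSeq 0.6.1 and DESeq2. Per the labels' protocols, a stranded total RNA kit with rRNA depletion and single-end reads of 50 bases were used. No source used here states the annotation, the strand setting or the handling of multiply matching reads. The authors' deposited table of 2890 genes gives, per the file headers, an adjusted p-value from DESeq2 and a log2 ratio of mean RPKM plus 1.

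Whole reads per gene were recovered from RPKM, length and the smallest step of each library for 100% of values (tolerance 0.01 reads). A row that names no gene (0.513% to 0.926% of reads) was left out. Replicate pairs differed by more than sampling noise (chi-square per gene 3.08 to 18.2). Within each strain replicates 1 and 2 were closest (3.16 in WT, 3.08 in tSH2Δ). Pairs with replicate 3 had 8.78 and 14.2 in WT, and 12.1 and 18.2 in tSH2Δ.

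Libraries were scaled by median-ratio factors (0.813 to 0.829 in WT, 1.21 to 1.24 in tSH2Δ). The limma fit (3.58.1, R 4.3.3; lmFit, eBayes with trend) used log2(RPKM + 1), which understates changes of low genes, for genes with at least 1 RPKM in 3 of 6 libraries, two-sided, Benjamini-Hochberg, threshold 0.05. It was run on simulated data with 200 genes changed and all others unchanged. That setting cannot show how the scaling fares where most genes were called, as in these data. Gene names and positions came from RefSeq assembly R64, where 5897 ids matched. Strand was read from the W or C of the id.

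The members and the 6 gene lists were chosen with earlier results of these data known. Named genes are those highest by level, ratio and spread, those nearest the limits, and up to 4 per list. Other list members, the pairs of related genes and other named genes were chosen after their values were seen. Alternatives covered pseudocount, filter, scaling, trend, voom, a replicate block, RefSeq genes alone, the limits of the rule and leaving out each library. A result on 1 member is not reported here.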

Additional observations from a re-analysis of the deposited data

How the results depend on the processing

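The membership depends on the scaling and the limits. The rule found 181 genes on RPKM as deposited and 84 on rescaled RPKM, all of them members. It found 60 with a WT limit of 2 RPKM, 59 with a ratio of at least 4, and 175 to 186 with any library left out. Members called higher numbered 172, and 144 to 169 with a library left out. Without a tSH2Δ library the filter left 166 members tested, of which 144 to 152 were called higher. Quantile normalization called 126 of the 181 higher, where it called 40.0% of all genes higher. Flanking genes called higher numbered 102, 176 with RPKM as deposited, and 94 to 99 with a library left out. Of 130 tested weak genes that were no members, 12 were called higher and 29 lower. Of the 130, 11 had all WT libraries under 1 RPKM and passed the filter only through tSH2Δ. That favours a call of higher. Those called higher numbered 25 with no filter, 4 with at least 1 RPKM in all libraries, 67 with RPKM as deposited and 2 after quantile normalization. Without a library this count was 3 to 13, with 3, 5 and 5 when tSH2Δ replicate 1, 2 or 3 was left out. In those fits 117, 116 and 114 of these genes were tested, as the filter still asked for 3 libraries. All genes called numbered 5266, and 4953 to 5184 with a library left out. With a replicate block 5054 genes and 170 members were called. No label ties equal replicate numbers to 1 culture, and deviations of same-numbered libraries correlated at -0.25, -0.09 and -0.28. Short members with few reads limit what can be read from single values, and 23 members had under 30 WT reads.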
